A study of Mus musculus with 10 samples.

Results

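Mice lacking both TAAR enhancers on each chromosome 10 (homo) were compared with mice that kept 1 intact copy of the locus (het), over all genes measured in the main olfactory epithelium (MOE). The 2 groups were chosen by genotype, as 7 of the 10 RNA-seq libraries of the series, with 4 homo and 3 het libraries, and the 3 wild-type (WT) libraries are given beside them. The labels give each mouse as C57BL/6 and 14 days old. The study's notes describe its mouse lines together as being of mixed C57BL/6J and 129 background. Homo mice carried the TAAR enhancer 1 and 2 double deletion on both alleles (-/-), het mice carried it on 1 allele (+/-), and WT mice carried none. The deletions were made in zygotes with CRISPR-Cas9, and the study's methods describe 1 established double deletion line and animals of both sexes. The deletion is constitutive, so that every cell of the animal carries it. RNA came from the whole dissected MOE, which holds glands, bone and cartilage besides olfactory sensory neurons (OSNs), and in such bulk RNA fewer cells of a type and less RNA per cell cannot be told apart. The labels do not tie libraries to single animals, so p-values measure the spread between these libraries.

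Trace amine-associated receptors (TAARs) are G protein-coupled receptors that detect volatile amines. Apart from Taar1, which is not an olfactory receptor, mouse Taar genes are expressed in a small set of OSNs. Each of these OSNs uses 1 Taar gene. Most other OSNs use 1 gene of the far larger odorant receptor (OR, symbols starting with Olfr) family. An enhancer is a DNA element that raises transcription of genes on the same chromosome, and the 2 TAAR enhancers lie beside Taar2 (enhancer 1) and in the gap from Taar6 to Taar7a (enhancer 2). Around the sensory epithelium, Bowman's and nasal glands secrete mucus and odorant-binding proteins, and turbinate bone and nasal cartilage carry the tissue.

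The het libraries held 22796570 to 24593302 counts and the homo libraries 21423861 to 27712948, and 17197 of 24421 genes had enough counts to be tested. The libraries carried the markers of their tissue: Omp, the marker of mature OSNs, measured 3950.0, 3572 and 4861 CPM in het-1 to het-3 and 4308, 3641, 4547 and 3983 CPM in homo-1 to homo-4, where CPM is the raw count per 1000000 counts of the library. Summed counts of 4 Y chromosome genes were above 1 CPM in het-1, homo-2, homo-3 and WT-1, termed Y gene libraries here, and at most 3 counts in each other library, so that each group held both kinds. The library het-2 stood apart from the other het libraries, with the highest OR total and the lowest level of bone genes of the 7, and results that rest on it are given with and without it.

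The Taar genes were nearly silent without an intact allele. Counts of the 14 olfactory Taar genes summed to 738, 862 and 759 in het-1, het-2 and het-3, and to 2, 5, 3 and 5 in homo-1 to homo-4. The mean over het libraries was 33.2 ± 2.78 CPM (SD, n = 3), and that over homo libraries was 0.155 ± 0.0566 CPM (SD, n = 4), with no overlap. The homo mean was 0.469% of the het mean, a 213-fold difference. The 15 Taar counts left among 95369023 counts of the 4 homo libraries gave an exact Poisson 95% interval of 0.0880 to 0.259 CPM, which covers counting error only. The highest homo library reached 0.716% of the lowest het library. In the edgeR model of all 10 libraries the Taar total was lower by 7.67 on the log2 scale (SE 0.18), as a description with no test. With 1 intact allele the total lay near that of the WT libraries, 35.4 ± 1.29 CPM (SD, n = 3), of which the het mean was 93.7%.

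Among the Taar genes the Taar7 genes are the nearest copies, and the sequences show how far their counts can be told apart. The first 90 coding bases of the 5 Taar7 genes are printed from GENCODE transcripts (GRCm38, mm10), with capitals at bases that differ from Taar7a. They lie at chr10:23992405-23993481 (- strand), chr10:23999939-24001015, chr10:24027222-24028298, chr10:24037614-24038690 and chr10:24049510-24050586 (+ strand), each with 1 exon.
Taar7a: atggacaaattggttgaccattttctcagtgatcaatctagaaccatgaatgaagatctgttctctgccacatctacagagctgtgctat
Taar7b: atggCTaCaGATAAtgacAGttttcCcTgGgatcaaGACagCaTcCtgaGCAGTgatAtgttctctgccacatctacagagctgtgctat
Taar7d: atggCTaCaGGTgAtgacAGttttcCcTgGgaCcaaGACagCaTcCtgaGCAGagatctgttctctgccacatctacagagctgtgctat
Taar7e: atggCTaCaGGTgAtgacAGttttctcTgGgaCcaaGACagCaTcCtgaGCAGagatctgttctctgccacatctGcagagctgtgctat
Taar7f: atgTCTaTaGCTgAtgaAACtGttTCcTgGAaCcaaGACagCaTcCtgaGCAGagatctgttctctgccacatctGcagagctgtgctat
The differences crowd at the start and thin out toward the end of this stretch. Over all 1077 coding bases, identity with Taar7a was from 91.7% (Taar7f) to 93.5% (Taar7d). Of the 50-base windows of a Taar7 transcript, 29.5 to 51.7% occurred word for word in another Taar7 gene, and of the Taar8 genes 50.9 to 72.5%. Single Taar7 and Taar8 counts are therefore uncertain in het and WT mice, whereas the homo libraries held 0 counts for all 8 of these genes.

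All 12 olfactory Taar genes that could be tested were lower in homo than in het mice, with edgeR adjusted p from 3.23e-08 (Taar6) to 0.00245 (Taar3), where 0.0698% of all genes tested were called lower. Every homo library lay below every het library for each of the 12, which held for 1.64% of all genes tested. Taar8a and Taar8c had too few counts to be tested. Of the 14 genes, 9 had 0 counts in each homo library, so that their folds, taken against a floor of 3 counts per library, are lower bounds. The 4 genes with 1 to 3 counts over all homo libraries are given as the ratio of pooled CPM with an exact 95% interval (Clopper-Pearson), which covers counting error only.

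Taar5, the receptor for trimethylamine (chr10:23970706-23971719), had 42, 34 and 46 counts in het and 1, 0, 0 and 0 counts in homo libraries. The pooled level was 163-fold lower (interval 28.8 to 6509), with an edgeR adjusted p of 5.44e-05. Taar3, which binds primary amines such as isoamylamine (chr10:23949558-23950589), had 13, 23 and 16 counts in het and 1, 0, 0 and 0 in homo libraries. Its pooled level was 69.7-fold lower (interval 12.0 to 2805). Taar2 (chr10:23938572-23941583), the 1 olfactory Taar gene with 2 exons, had 50, 73 and 25 counts in het and 0, 3, 0 and 0 in homo libraries. All of its residual counts were in homo-2, and the pooled level was 66.1-fold lower (interval 22.2 to 324). The edgeR adjusted p was 0.000206.

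Taar4, the receptor for phenylethylamine (chr10:23960494-23961537), was the 1 gene with counts above the floor in a homo library. It had 58, 80 and 33 counts in het and 0, 2, 3 and 4 in homo libraries, or 2.42 ± 1.02 CPM (SD, n = 3) against 0.0899 ± 0.0644 CPM (SD, n = 4). This was a log2 difference of -4.61 (SE 0.49) at an edgeR adjusted p of 8.28e-05. Of the 15 residual counts, 9 were in Taar4, 3 in Taar2 and 1 each in Taar3, Taar5 and Taar6. Taar2 to Taar6 are neighbours at 1 end of the cluster, and Taar7a to Taar9 at the other end had none. Taar4 shared no 50-base window with another olfactory Taar gene, and genes outside that list were not compared. The source of the residual counts was not tested.

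Taar6 (chr10:23984609-23985646) had 86, 97 and 115 counts in het and 0, 0, 0 and 1 in homo libraries, a pooled level 399-fold lower (interval 71.1 to 15825). Taar7d had 73, 123 and 91 counts in het, Taar7e had 95, 104 and 89, and both had 0 in the homo libraries. These were at least 31.7-fold and 31.9-fold lower, the highest bounds of the 9 genes. The other Taar7 genes had 57 to 94 counts per het library, and bounds from 21-fold (Taar7b) to 27.7-fold (Taar7f). Taar9 (chr10:24108488-24109534), at the far end of the cluster, had 60, 80 and 67 counts in het and 0 in each homo library, at least 22.9-fold lower. Taar8b had 33, 22 and 25 counts in het and 0 in each homo library, at least 8.90-fold lower. The untested Taar8a had 9, 2 and 5 and Taar8c 1, 8 and 8 counts in het libraries, and 0 in the homo libraries.

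With 1 intact allele the family kept a wide range of levels. Per kilobase of transcript, Taar6 was highest in het mice at 4.02 ± 0.443 CPM per kb (SD, n = 3), followed by Taar7e at 3.76 ± 0.362 and Taar7d at 3.74 ± 0.951, which do not differ beyond their spread. The middle of the order was held by Taar7f, Taar7a, Taar9 and Taar7b, from 3.27 ± 0.343 down to 2.48 ± 0.194 CPM per kb. Taar4 at 2.31 ± 0.974 and Taar2 at 2.05 ± 1.01 CPM per kb varied most between het libraries relative to their mean among the 12 tested genes, and both were lowest in het-3. The lowest tested levels were those of Taar8b at 1.09 ± 0.270 and Taar3 at 0.707 ± 0.203 CPM per kb. The places of the Taar7 and Taar8 genes in this order are uncertain, as reads of near-identical copies may be misassigned or lost. Of the 50-base windows of Taar8b, 56.4% occur in another olfactory Taar gene, and of those of Taar3 0%. Against WT the same model gave log2 fold changes of het from -0.49 (Taar2) to 0.38 (Taar7e) over the 12 genes, none with an adjusted p under 0.05, and of homo from -9.70 (Taar7a) to -4.37 (Taar4). These contrasts share libraries with homo against het.

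**Figure D1:**
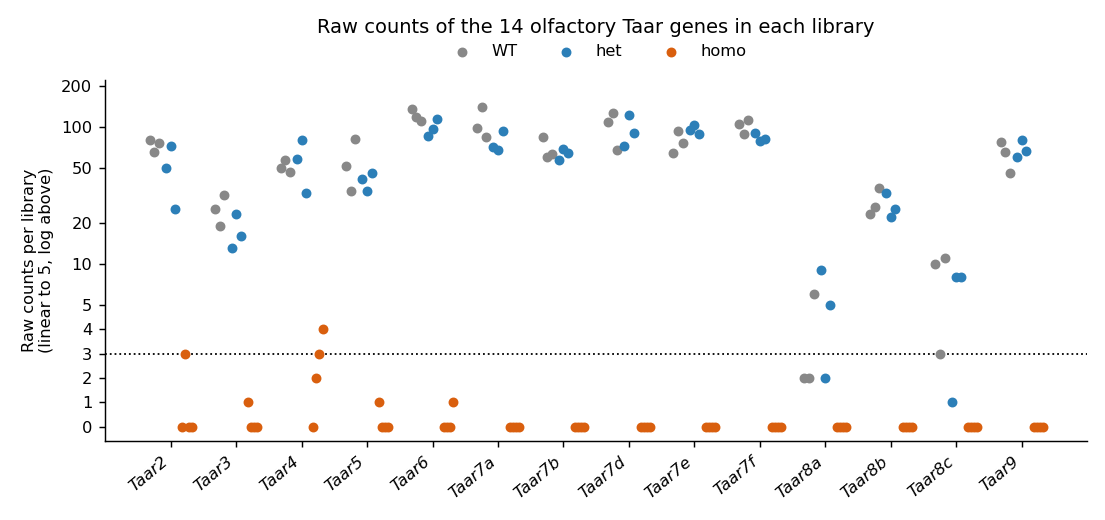
Raw counts of each olfactory Taar gene in each library (axis linear to 5 and logarithmic above), with WT, het and homo libraries as separate columns of points and the floor of 3 counts as a dotted line. The homo libraries lie at 0 for 9 genes and reach 4 counts in Taar4, while the ranges of het and WT overlap for each gene.

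Outside the family 1 gene passed the test. Among 17197 genes tested, 13 (0.0756%) were called at an edgeR adjusted p under 0.05, and the gene beside the 12 Taar genes was Bglap3, higher in homo mice (0.00581% of genes tested called higher). Without adjustment 427 genes had a p under 0.05, 264 of them higher in homo mice (1.54%) and 163 lower (0.948%). The same model gave 12 genes between homo and WT mice and 0 between het and WT mice, the latter with 330 at an unadjusted p under 0.05 in edgeR. In simulated data with 200 genes changed 2-fold between these groups, 71% were found when 17044 genes were tested, and with 4-fold changes 95.5% were found when 17037 were. The adjusted threshold is looser where 200 genes change than where 13 are called, so these shares are likely too high for single genes here. The simulation also had no library that stood apart as het-2 did.

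**Figure D2:**
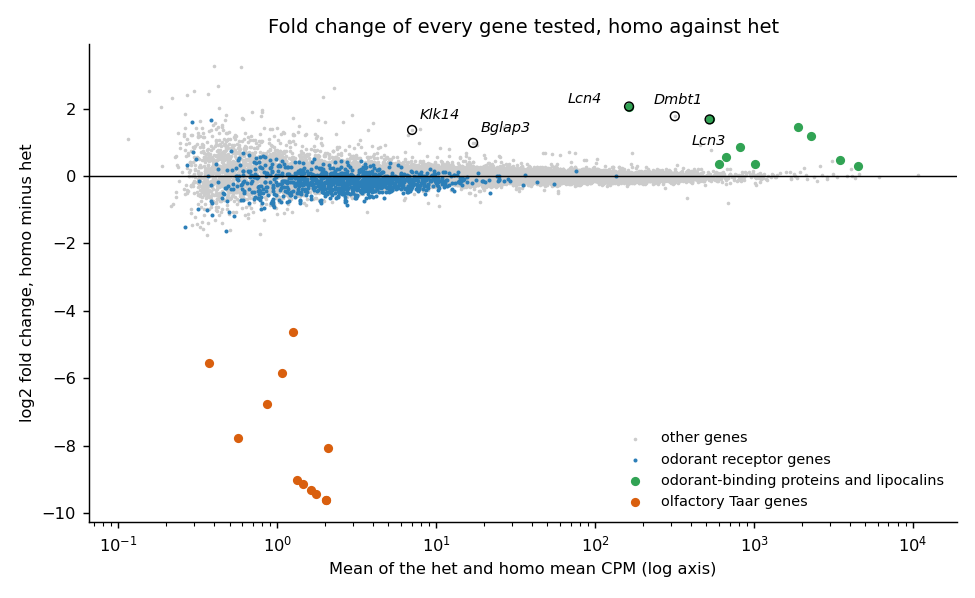
Log2 fold change of each tested gene, homo minus het, against the mean of the het and homo mean CPM (log axis), with Taar genes, OR genes and odorant-binding proteins and lipocalins in colour and 5 genes ringed. The 12 Taar points lie between -9.62 and -4.61, below all other genes, and the green lipocalin points lie above 0.

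Bglap3 is a copy of the osteocalcin gene and lies beside Bglap and Bglap2 on chromosome 3. Osteocalcin is a small protein that osteoblasts deposit in bone matrix. Which cells of the MOE gave the Bglap3 RNA was not tested. The coding sequences of the 3 copies, each in 4 exons on the - strand, at chr3:88383635-88384415, chr3:88377870-88378650 and chr3:88368756-88369536 (GRCm38, from GENCODE transcripts), are shown because reads can only be assigned where they differ. Capitals mark bases that differ from Bglap.
Bglap: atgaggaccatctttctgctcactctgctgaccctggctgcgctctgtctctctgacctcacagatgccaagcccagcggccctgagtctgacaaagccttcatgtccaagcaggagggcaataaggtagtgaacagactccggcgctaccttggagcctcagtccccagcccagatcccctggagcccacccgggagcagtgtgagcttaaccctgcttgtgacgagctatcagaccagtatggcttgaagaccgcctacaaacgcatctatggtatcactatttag
Bglap2: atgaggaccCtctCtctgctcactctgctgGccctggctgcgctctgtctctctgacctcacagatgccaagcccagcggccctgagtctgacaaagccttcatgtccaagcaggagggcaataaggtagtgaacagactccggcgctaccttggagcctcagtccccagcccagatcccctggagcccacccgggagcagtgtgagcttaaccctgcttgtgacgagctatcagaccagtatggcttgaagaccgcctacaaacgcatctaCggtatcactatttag
Bglap3: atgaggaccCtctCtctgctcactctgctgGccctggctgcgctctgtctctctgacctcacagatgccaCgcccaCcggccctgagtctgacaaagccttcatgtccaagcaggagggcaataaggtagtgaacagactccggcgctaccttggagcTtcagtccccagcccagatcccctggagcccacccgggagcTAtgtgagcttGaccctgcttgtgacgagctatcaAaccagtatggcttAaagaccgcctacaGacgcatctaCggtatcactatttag
Of 288 bases, 4 differ in Bglap2 and 13 in Bglap3, which is 98.6% and 95.5% identity. Over whole transcripts, 74.7% of the 50-base windows of Bglap and 88.2% of those of Bglap2 occur in another copy, but 13.1% of those of Bglap3, whose transcripts are longer. Windows were pooled over all protein-coding transcripts of a gene, 3668 for Bglap3, whose longest transcript has 2051 bases. The share in the coding part of Bglap3 alone was not computed.

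Bglap3 measured 13.4, 12.1 and 9.03 CPM in het-1 to het-3 and 27.2, 25.3, 19.3 and 18.5 CPM in homo-1 to homo-4. Every homo library lay above every het and WT library, as 2.24% of all genes did against het. The het mean was 11.5 ± 2.23 CPM (SD, n = 3) and the homo mean 22.6 ± 4.33 CPM (SD, n = 4). The log2 difference was 0.98 with an SE of 0.17 and an edgeR adjusted p of 0.0394. Against the WT libraries, at 13.9 ± 1.65 CPM (SD, n = 3), it was 0.71 (SE 0.17, edgeR adjusted p 0.757). The call stood in 2 of the 10 fits that left out 1 library, with edgeR adjusted p from 0.0183 to 0.284, highest without het-3. It stood without homo-3 or homo-4 and was lost without each of the other 8. The log2 difference in those fits ran from 0.83 to 1.10. The call was also lost with a term for Y gene libraries (log2 difference 0.96, edgeR adjusted p 0.0508), in the 7 het and homo libraries alone (0.98, edgeR adjusted p 0.0638) and with only genes at a mean CPM of at least 1 (0.98, edgeR adjusted p 0.0532). It stood in DESeq2 (adjusted p 7.19e-05), in limma (0.0344), with RLE size factors and with no filter. Within Y gene libraries (1 het, 2 homo) the ratio of homo to het was 1.67, and within the others (2 het, 2 homo) it was 2.17.

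The other copies did not pass the test. Bglap (chr3:88383501-88384464) measured 45.0, 35.8 and 53.3 CPM in het and 50.7, 35.5, 47.7 and 52.0 CPM in homo libraries, and Bglap2 (chr3:88377736-88378699) 44.2, 34.9 and 56.0 and 52.0, 36.0, 49.96 and 49.5 CPM. Both overlapped between the groups, with log2 fold changes of 0.06 (SE 0.13) and 0.06 (SE 0.14). Without het-2 both turned slightly negative, to -0.070 and -0.084. With the copies summed to 1 row the difference was 0.20 (SE 0.11), with a het mean of 101 ± 17.8 CPM (SD, n = 3) and a homo mean of 116 ± 13.9 CPM (SD, n = 4). The annotated starts of Bglap and Bglap3 are not matching positions: that of Bglap lies close to its coding sequence and that of Bglap3 far upstream. The 250 bases before the most upstream RefSeq start of Bglap (chr3:88384467-88384716) and of Bglap3 (chr3:88372742-88372991) are therefore shown as separate sequences (GRCm38.p6, - strand), with the TATA nearest the start in capitals.
Bglap: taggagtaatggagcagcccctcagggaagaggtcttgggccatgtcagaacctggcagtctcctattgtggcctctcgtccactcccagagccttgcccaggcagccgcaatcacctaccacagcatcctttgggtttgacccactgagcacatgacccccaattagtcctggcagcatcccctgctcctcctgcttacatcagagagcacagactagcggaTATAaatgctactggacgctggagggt
Bglap3: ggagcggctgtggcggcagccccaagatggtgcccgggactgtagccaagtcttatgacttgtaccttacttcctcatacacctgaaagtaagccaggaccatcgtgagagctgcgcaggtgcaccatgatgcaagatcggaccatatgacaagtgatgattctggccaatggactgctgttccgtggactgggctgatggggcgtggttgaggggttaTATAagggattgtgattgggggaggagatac
The letters TATA, which read the same on both strands, begin 27 and 31 bases before these starts. They occur at some position in 34.0% of 32851 such windows, and the share at these positions was not computed.

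**Figure D3:**
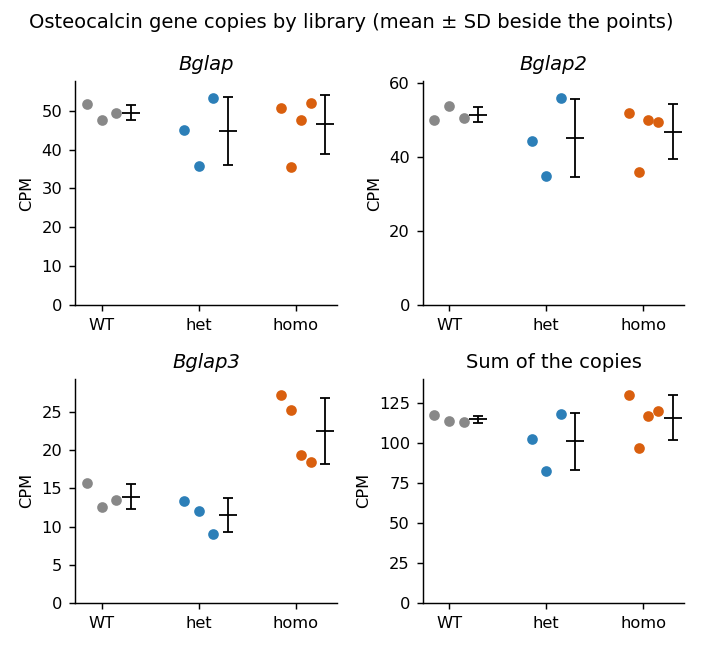
CPM of the osteocalcin gene copies and of their sum in each WT, het and homo library, with the mean and SD beside the points. Bglap3 lies between 18.5 and 27.2 CPM in the homo libraries, above each het and WT library, while Bglap, Bglap2 and the sum overlap.

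Of the 22 genes of the osteoblast and bone matrix list, all were tested, 21 had a positive log2 fold change, against 49.7% of all genes tested, and 1, Bglap3, had an unadjusted p under 0.05 (1.54% of all genes higher). The list median was 0.23, against -0.00097 over all genes tested, and -0.0063 against WT. Dmp1, a matrix protein of osteocytes, measured 107, 59.9 and 96.2 CPM in het and 135, 98.4, 116 and 108 CPM in homo libraries (0.39, SE 0.27). Alpl, the alkaline phosphatase that frees phosphate for mineral, measured 105, 67.2 and 94.1 and 119, 97.8, 105 and 105 CPM (0.27, SE 0.16). In both, het-2 was lowest of the 7 libraries and the groups overlapped. Runx2, the transcription factor that sets osteoblast fate, differed by 0.17 (SE 0.11), the PTH receptor Pth1r by 0.25 (SE 0.16), the sphingomyelinase gene Smpd3 by 0.26 (SE 0.18), osteonectin, Sparc, by 0.24 (SE 0.19) and the matrix phosphoglycoprotein gene Mepe by 0.47 (SE 0.27), all with an edgeR adjusted p of 0.999. The summed level of the list was 12512, 7943 and 10339.6 CPM in het and 13641, 11244, 12328 and 10696 CPM in homo libraries, lowest in het-2. Without het-2 the median was 0.093, and without het-1 it was 0.39. 

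Cartilage and osteoclast genes also had mostly positive differences. Of 12 tested cartilage genes 11 had a positive log2 fold change and 2 an unadjusted p under 0.05, with a median of 0.42, where 49.7% of all genes tested were positive and 1.54% were higher at that p. Col2a1, the main collagen of cartilage, measured 14.3, 11.4 and 17.9 CPM in het and 19.0, 18.6, 19.1 and 21.2 CPM in homo libraries. These groups did not overlap, and the difference was 0.43 (SE 0.15, unadjusted edgeR p 0.0104). Hapln1, which links aggrecan to hyaluronan, differed by 0.51 (SE 0.21, unadjusted edgeR p 0.0269) and aggrecan itself, Acan, by 0.68 (SE 0.34, unadjusted edgeR p 0.0704). In the osteoclast list 11 of 12 were positive with a median of 0.16. Its 1 gene with an unadjusted p under 0.05 was Oscar, an activating receptor of osteoclasts, at 2.90, 2.27 and 2.68 CPM in het and 3.97, 3.85, 4.11 and 3.10 CPM in homo libraries (0.53, SE 0.20, unadjusted edgeR p 0.0168). Mmp9, a gelatinase of osteoclasts, differed by 0.22 (SE 0.15) and the calcitonin receptor Calcr by 0.58 (SE 0.46). No gene of either list had an edgeR adjusted p under 0.05. Summed cartilage levels were 473, 316 and 403 CPM in het and 489, 437, 516 and 468 CPM in homo libraries, again lowest in het-2, and without het-2 the cartilage median was 0.24. The osteoclast median ran from 0.079 without het-3 to 0.26 without het-1.

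Several gland genes had higher values in homo mice, though none passed the adjusted test in edgeR. Dmbt1, a scavenger receptor protein secreted by mucosal glands (chr7:131032053-131121630), measured 170.4, 152 and 109.7 CPM in het-1 to het-3 and 837, 386, 342 and 393 CPM in homo-1 to homo-4. Each homo library lay above each het and WT library, homo-1 far above the others. On the log2 scale it differed by 1.77 (SE 0.39, unadjusted edgeR p 0.00219, edgeR adjusted p 0.999), and 1.66 (SE 0.39) against WT. Its adjusted p was 0.0255 in DESeq2 and 0.0499 in edgeR without homo-1. In edgeR without each other library, and with the other scalings and filters, it was not under 0.05. Within Y gene libraries (1 het, 2 homo) the ratio of homo to het was 2.13, and within the others (2 het, 2 homo) it was 4.71.

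Klk14, a secreted kallikrein protease (chr7:43690418-43695536), measured 5.75, 3.99 and 2.11 CPM in het and 11.0, 14.7, 6.35 and 8.48 CPM in homo libraries. These groups did not overlap, and the difference was 1.37 (SE 0.33, unadjusted edgeR p 0.0014, edgeR adjusted p 0.999), with an adjusted p of 0.00737 in DESeq2. Klk14 was called in 0 of the 10 fits that left out 1 library. Its adjusted p was 0.916 in limma and 0.636 in edgeR with a Y gene term. Dmbt1 and Klk14 were the 2 genes of the nasal gland and mucus list with an unadjusted p under 0.05, of 27 tested from 30 (1.54% of all genes higher), and 18 of the 27 were positive, against 49.7% of all genes tested, with a median of 0.051, which ran from 0.029 without het-2 to 0.17 without homo-4. The list median was -0.00066 between homo and WT and -0.053 between het and WT. The gel-forming mucin Muc5b measured 375, 343 and 355 and 352, 466, 373 and 430.0 CPM (0.18, SE 0.11). Wfdc18, a whey acidic protein of secretory cells, differed by 0.21 (SE 0.14), Bpifb1, a secreted lipid-binding protein, by 0.18 (SE 0.16), Tff2, a trefoil peptide, by 0.19 (SE 0.16) and Pigr, which carries antibodies across epithelia, by 0.63 (SE 0.44). The mucin Muc5ac differed by 1.41 (SE 0.99), and its values, 3.68, 5.47 and 3.86 CPM in het and 5.04, 32.7, 6.22 and 1.77 CPM in homo libraries, rested on homo-2, without which the difference was -0.011. The summed level of the list, 37756, 28891 and 26449 CPM in het and 33539, 40108, 28958 and 25402 CPM in homo libraries, overlapped.

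Odorant-binding proteins and lipocalins are small secreted carriers of hydrophobic molecules in nasal mucus. Of 13 listed, 10 were in the table and all 10 were tested, each with a positive log2 fold change, from 0.31 to 2.06. Over all genes tested 49.7% were positive. Of the 10, 4 had an unadjusted p under 0.05 (1.54% of all genes higher), and the list median was 0.72, against 0.58 between homo and WT and -0.24 between het and WT. Lcn3 (chr2:25765569-25768099) measured 236, 248 and 269 CPM in het and 1377, 493, 767 and 554 CPM in homo libraries. Its groups did not overlap, and the difference was 1.68 (SE 0.38, unadjusted edgeR p 0.00227, edgeR adjusted p 0.999). Its adjusted p was 0.0391 in DESeq2 and 0.011 in edgeR without homo-1. Lcn3 was not called in 9 of the 10 fits that left out 1 library, nor in limma. Nor was it called in edgeR with a Y gene term, a replicate block or the 7 libraries alone. Lcn4, with Lcn3 known as a secretory protein of vomeronasal glands (chr2:26667674-26671282), measured 78.3, 75.6 and 36.5 and 552, 112, 282 and 105 CPM, a difference of 2.06 (SE 0.83, unadjusted edgeR p 0.0411). It was also highest in homo-1, and each homo library lay above each het library.

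Obp2b (chr2:25737009-25740097) measured 1102, 1264 and 671 CPM in het and 4508, 2676, 2114 and 1657 CPM in homo libraries, with no overlap. The difference was 1.45 (SE 0.46, unadjusted edgeR p 0.0149), and 1.48 (SE 0.46) against WT. Obp2a (chr2:25700043-25703326) measured 1702, 1701 and 777 and 4422, 4301, 2338 and 1573 CPM, where homo-4 lay below het-1 and het-2, with a difference of 1.19 (SE 0.49, unadjusted edgeR p 0.045). Of the 50-base windows of these 2 transcripts, 11.7% of Obp2a and 11.9% of Obp2b occur in the other, and none is shared between Lcn3 and Lcn4. The other named carriers overlapped between the groups, with differences of 0.87 for Mup5 (SE 0.81), 0.56 for Gm14743 (SE 0.59), 0.49 for Obp1a (SE 0.53) and 0.36 for Lcn11 (SE 0.54). With all libraries and genotype as the only term, no carrier had an edgeR adjusted p under 0.05. Summed levels were 12555, 17489 and 6496 CPM in het and 22813, 31195, 12862 and 11500.4 CPM in homo libraries, so that the groups overlapped. The list median ran from 0.29 without homo-2 to 1.19 without het-2. Within Y gene libraries (1 het, 2 homo) the ratio of homo to het was 2.67 for Lcn3 and 2.17 for Obp2b. Within the others (2 het, 2 homo) it was 3.73 and 3.19.

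**Figure D4:**
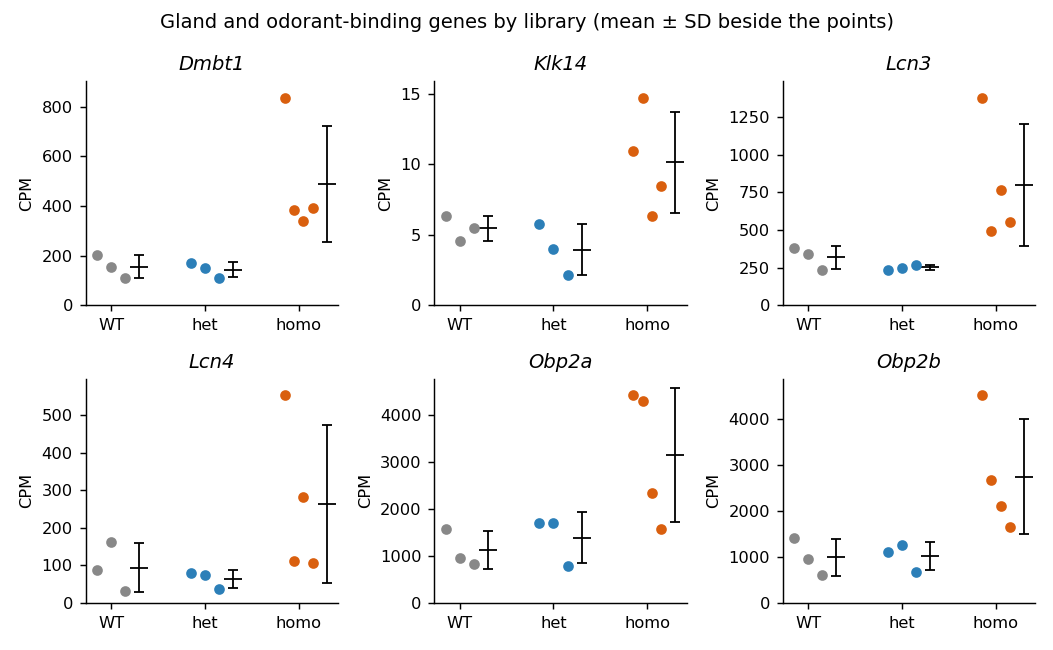
CPM of 2 gland genes and 4 odorant-binding or lipocalin genes in each WT, het and homo library, with the mean and SD beside the points. Homo libraries lie above the het libraries in each panel except Obp2a, and homo-1 is the highest point for each gene but Klk14.

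Of the 10 genes outside the Taar family with the smallest p, 9 were higher in homo mice and every homo library lay above or below every het library for all 10, as they were chosen by this contrast. Beside Bglap3, Klk14 and Dmbt1 these included Slc6a12, a betaine and GABA transporter, at 0.395, 0.336 and 0.285 CPM in het and 0.980, 1.02, 2.07 and 1.01 CPM in homo libraries (1.90, SE 0.41, edgeR adjusted p 0.353). Fndc5, the precursor of irisin, measured 2.72, 2.02 and 2.40 and 4.43, 4.86, 3.64 and 4.40 CPM (0.87, SE 0.20, edgeR adjusted p 0.622). Adcyap1r1, the receptor of the neuropeptide PACAP, differed by 1.21 (SE 0.30) and complement C3 by 0.84 (SE 0.21). Cd3d, a chain of the T cell receptor complex, measured 0.0877, 0.0421 and 0.122 CPM in het and 0.513, 0.531, 0.635 and 0.361 CPM in homo libraries, which is 2, 1 and 3 counts in the het libraries, at or under the floor. Its WT libraries measured 0.187, 0.782 and 0.562 CPM and overlapped the homo libraries. Ripply1, a transcriptional repressor, differed by 1.13 (SE 0.30). Stard6, a lipid transfer protein, was the 1 lower gene, at 1.45, 1.72 and 1.30 CPM in het and 0.653, 0.663, 0.677 and 0.794 CPM in homo libraries (-1.08, SE 0.29). All but Bglap3, Slc6a12 and Fndc5 had an edgeR adjusted p of 0.999.

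No OR gene passed the test between homo and het mice. Of 1125 OR genes 1043 were tested, and 0 had an edgeR adjusted p under 0.05. At an unadjusted edgeR p under 0.05, 57 were lower in homo mice (5.47%, against 0.948% of all genes). At the same p 3 OR genes were higher, where 1.54% of all genes were. DESeq2 and limma also called 0 OR genes. A negative log2 fold change was found in 802 OR genes (76.9%), against 8651 of 17197 genes tested. The OR median was -0.17, while the median SE of 1 OR gene was 0.253. Between homo and WT the OR median was -0.021, and between het and WT it was 0.16. The OR total was 4230.2, 5454 and 4364 CPM in het-1 to het-3 and 4117, 4059, 4553 and 4078 CPM in homo-1 to homo-4. The groups overlapped, and het-2 was the highest of all 10 libraries, WT included. Without het-2 the median was -0.011, with 52.3% of the genes negative, 10 lower and 9 higher at an unadjusted p under 0.05. Without het-1 or het-3 the median moved the other way, to -0.25 and -0.24. Mature OSN markers summed to 9102, 8881 and 10192 CPM in het and 9499.5, 8323, 9936 and 9125 CPM in homo libraries and were lowest in homo-2, with het-2 the lowest of the het libraries.

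As single genes the ORs had log2 fold changes from -1.64 to 1.65, none of them called. The most abundant, Olfr536 (chr7:140500849-140507396), measured 142, 118 and 144 CPM in het and 136, 138, 131 and 137 CPM in homo libraries (0.01, SE 0.08). Olfr1507 (chr14:52488791-52495749) differed by 0.14 (SE 0.14), Olfr727 by -0.23 (SE 0.16) and Olfr578 by 0.06 (SE 0.17), with overlapping groups. The lower genes with the smallest p were Olfr1501, at 3.42, 5.17 and 4.59 CPM in het and 2.33, 2.12, 2.84 and 3.25 CPM in homo libraries (-0.73, SE 0.21, unadjusted edgeR p 0.00254), then Olfr193 (-0.85), Olfr1215 (-0.80), Olfr872 (-0.77) and Olfr1287 (-1.64). Each of these 5 was highest in het-2 among the het libraries. The higher genes with the smallest p were Olfr1378 (1.65, SE 0.46, unadjusted edgeR p 0.00256), Olfr853 (1.6), Olfr30 (0.33), Olfr1451 (0.52) and Olfr571 (0.44). Each of these ORs had an edgeR adjusted p of 0.999. Of 338 vomeronasal receptor genes 9 had enough counts to be tested, and the smallest p among them was that of Vmn2r70 (-0.99, SE 0.47, unadjusted edgeR p 0.0523).

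**Figure D5:**
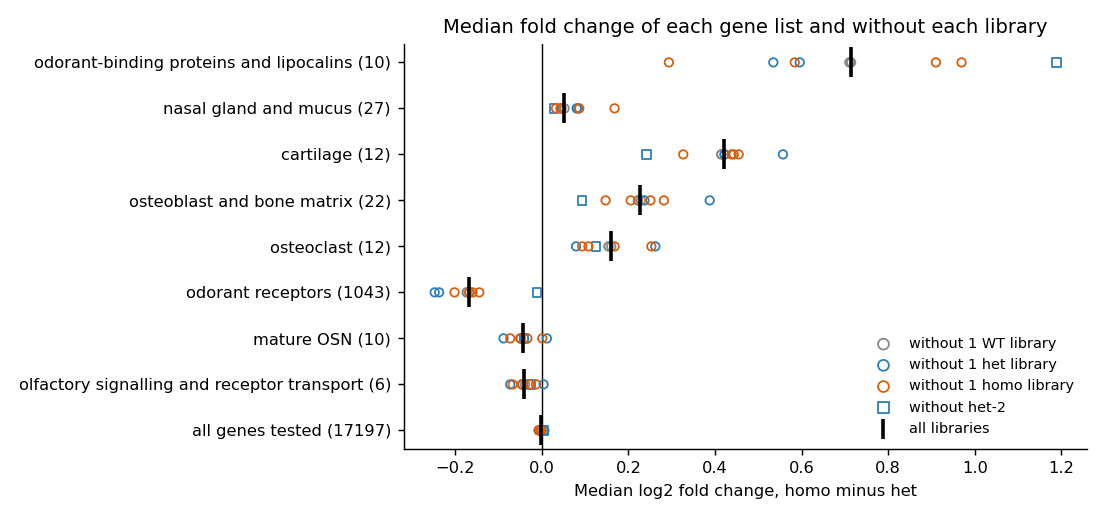
Median log2 fold change between homo and het mice for 9 groups of genes (number tested in brackets), with all libraries (bar) and without each library in turn (open points, het-2 as squares). Without het-2 the OR median moves to -0.011 and the bone median to 0.093, while the lipocalin median moves to 1.19.

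The signalling genes that ORs and TAARs share overlapped between the groups. Gnal, the G protein of OSNs, measured 1783, 1805 and 1687 CPM in het and 1673, 1644, 1614 and 1692 CPM in homo libraries (-0.08, SE 0.09). The adenylyl cyclase Adcy3 differed by 0.02, the cyclic nucleotide-gated channel Cnga2 by -0.03, the chloride channel Ano2 by 0.03, and the receptor transporters Rtp1 and Rtp2 by -0.05 and -0.08, each with an SE from 0.0894 to 0.100. The 6 genes had a median of -0.04, and 10 mature OSN markers a median of -0.043, with 0 genes at an unadjusted p under 0.05 in either list in edgeR. Medians were -0.013 for immature OSN markers, -0.0058 for globose basal cells and precursors, 0.053 for horizontal basal cells, -0.00055 for sustentacular cells, 0.041 for ciliated respiratory cells, -0.056 for microvillous cells, 0.052 for vomeronasal neurons, 0.042 for neutrophils and marrow and 0.15 for macrophages. Of these genes 1 had an unadjusted p under 0.05, the horizontal basal cell marker Icam1 (0.41, SE 0.18, unadjusted edgeR p 0.032), an adhesion molecule that other cells also carry. Of 5 erythroid and of 5 muscle genes 1 each could be tested. Neutrophil and marrow genes, which mark blood and bone marrow, summed to 758, 278 and 268 CPM in het and 739, 988, 555 and 639.6 CPM in homo libraries, and their part in the gland and bone results was not tested.

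Genes beside the Taar cluster did not pass the test either. Slc18b1 (chr10:23796986-23827968), a vesicular polyamine transporter, measured 37.6, 41.2 and 35.6 CPM in het and 33.3, 34.1, 34.3 and 38.2 CPM in homo libraries (-0.12, SE 0.10). On the other side Stx7 (chr10:24149302-24190222), a syntaxin of endosomes, differed by -0.11 (SE 0.09) and Moxd1 (chr10:24223517-24302790) by -0.02 (SE 0.11). Of 15 genes within 1 Mb of the cluster outside the family, 14 were tested, with log2 fold changes from -0.91 to 1.03, and 0 had an unadjusted p under 0.05 in edgeR, the smallest being 0.0636.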

How the data were processed

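RNA-seq libraries of the whole MOE were grouped by the genotype in the sample titles. Directional libraries were made after poly(A) selection. The submitters' processing notes name Trimmomatic 0.36, HISAT2 2.1.0, featureCounts of Subread 1.6.2 and DESeq2 1.20.0 on GRCm38 (mm10). The authors deposited raw counts per gene. A second table they deposited holds a normalized signal, the counts divided by a size factor for each library, and was used here only in an alternative. How strand and multiply aligned reads were handled is not given in the sources used here, so that near-identical, overlapping and antisense genes are uncertain. Of the row names 27 were dates, as spreadsheet programs make from gene symbols, and were kept.

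Counts were fitted in R 4.3.3 with edgeR 4.0.16 (filterByExpr on genotype, minimum count 10, minimum total 15, TMM, robust quasi-likelihood, all 10 libraries, genotype as the only term). The 17197 genes tested held 99.97% of the counts, and the common biological coefficient of variation was 13.9%. The contrast homo minus het was tested with two-sided F tests, with Benjamini-Hochberg adjustment across the 17197 genes, and a change was called at an adjusted p under 0.05. The SE is the log2 fold change over the root of F. A floor of 3 counts per library stands for a count of 0, and it and the intervals cover counting error only, since no molecular identifiers tell reads from molecules. Libraries of 1 genotype differed by more than sampling noise, with a chi-square over its degrees of freedom from 13.9 to 47.0. The model was tested on simulated data with 200 genes changed. There 13 unchanged genes were also called with 2-fold changes, and 16 with 4-fold changes.

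The members, gene lists and alternatives were chosen with earlier results of these data known. Named are the olfactory Taar genes, each called gene, the 10 other genes with the smallest p, the 8 tested members with the smallest p of the lipocalin, gland and bone lists and the 3 of the osteoclast and cartilage lists, the genes Bglap, Bglap2, Bglap3, Dmbt1, Klk14, Lcn3, Obp2a and Obp2b, ORs by p (5 in each direction), level (the 3 highest) and Olfr1507 and Olfr578, the signalling genes, 3 neighbours, and 1 vomeronasal receptor. Omp is named as a tissue check. Alternatives were RLE size factors, no filter, a mean CPM of at least 1, the 7 libraries alone, a replicate block, a Y gene term, each library left out, DESeq2 1.42.0, and limma 3.58.1 on log2 of the normalized value plus 1. Positions and transcripts were those of GENCODE on GRCm38 (older symbols beside the cluster through RefSeq), and upstream sequence was from RefSeq (GRCm38.p6).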

Additional observations from a re-analysis of the deposited data

Results flagged for a closer look

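In 6 of 83 values checked over the 4 homo libraries, Dixon's criterion at the 95% level set 1 library apart, which chance gives in about 1 of 20 such groups. Values are CPM in homo-1 to homo-4. Dmbt1 measured 837, 386, 342 and 393, with homo-1 highest, and all 4 lay above each het library. Slc6a12 measured 0.980, 1.02, 2.07 and 1.01, with homo-3 highest. Stard6 measured 0.653, 0.663, 0.677 and 0.794, with homo-4 highest. Muc5ac measured 5.04, 32.7, 6.22 and 1.77, with homo-2 highest. Bglap2 measured 52.0, 36.0, 49.96 and 49.5, with homo-2 lowest. The OR total measured 4117, 4059, 4553 and 4078, with homo-3 highest. Groups of 3 libraries, het among them, were not tested in this way. The cause of each was not tested.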

How the results depend on the processing

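The 12 tested Taar genes were called in each fit that tested them. Taar8a and Taar8c, tested with no filter and in DESeq2, were not. A mean CPM of at least 1 left 10 of them, and all 10 were called. The count of genes called was 13 in edgeR, 10 with a mean CPM of at least 1, 12 with a Y gene term, 16 in DESeq2, 13 in limma and 12 to 14 without 1 library. The sample titles do not say whether het and homo libraries with the same number are related (correlations of their deviations -0.15, 0.16 and 0.068). The study describes the genotypes as littermates. The litter of each library is not given in the titles, so effects of litter were not tested. With a replicate block, in which homo-4 has its own term and adds nothing, the count was 24, of which 12 were Taar genes. The edgeR adjusted p was 0.000206 for Dmbt1, 0.000251 for Bglap3, 0.00033 for Obp2b, 0.0006 for Obp2a, 0.00995 for Obp1a and 0.0495 for Gm14743. The other genes called were BC048546 (edgeR adjusted p 0.000439), 5430402E10Rik (0.00651), Cd177 and Krt15 (0.00991 each), Qsox1 (0.0495) and Fos (0.0338), which was lower in homo mice. Klk14 and Lcn3 were not called with the block, at edgeR adjusted p of 0.0682 and 0.999. The Taar total was -6.43 without the Taar7 and Taar8 genes, and -7.67 with them. The gland median was 0.15 with the replicate block, and 0.029 to 0.17 without 1 library. Of 1528 alternative values of 86 results, 1482 counted as unchanged, 11 lost a call, all Bglap3, 10 gained one, 21 changed sign and 4 moved. For named genes unchanged means the same direction and call (1295 values). For counts of genes it means a move within a set margin. For sums and medians the margin was the pooled SD within het and homo libraries, so that the OR median without het-2 counted as unchanged. In the fits without 1 library these genes changed sign, none of them called, with log2 fold changes of Lcn11 from -0.17 to 0.61, Muc5ac from -0.011 to 1.78, Bglap from -0.070 to 0.20, Bglap2 from -0.084 to 0.24, Olfr536 from -0.065 to 0.057, Olfr578 from -0.015 to 0.21, Adcy3 from -0.00097 to 0.044, Cnga2 from -0.10 to 0.026, Ano2 from -0.021 to 0.070, Rtp1 from -0.12 to 0.057 and Moxd1 from -0.14 to 0.077. With the replicate block Cnga2 was 0.025 and Moxd1 0.021. The cause of these moves was not tested.

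With 3 and 4 libraries and 21423861 to 27712948 counts in each, 71% of simulated 2-fold changes were recovered where 200 genes changed. Where fewer genes change, the adjusted threshold is stricter. Smaller changes, and changes of single OR genes at a median SE of 0.253, were therefore often not detectable at this depth. The list medians without each library, the ratios within Y gene libraries and within the others, and the OR counts without each library were chosen after seeing the data.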

Other observations

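Further genes had a higher mean in homo than in het mice without passing the adjusted test. They were chosen after their values were seen. Slc6a13, a GABA transporter next to Slc6a12 on chromosome 6, measured 0.658, 0.841 and 1.55 CPM in het and 3.27, 1.33, 2.29 and 2.78 CPM in homo libraries, a difference of 1.25 (SE 0.35, unadjusted edgeR p 0.00226), and overlapped. Slc13a4, a sulfate transporter, measured 0.219, 0.294 and 1.10 and 1.59, 1.42, 1.23 and 1.59 CPM, a difference of 1.42 (SE 0.46, unadjusted edgeR p 0.00673). The connexin gene Gjb6 differed by 0.90 (SE 0.27, unadjusted edgeR p 0.00381) and vitronectin, Vtn, by 1.36 (SE 0.41, unadjusted edgeR p 0.00591). For Slc6a13, Slc13a4 and Gjb6 the WT means, 1.71, 1.28 and 2.77 CPM, lay between the het and homo means.

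Among them were also secreted proteins. Cfb, complement factor B, measured 4.30, 3.74 and 3.82 CPM in het and 11.9, 11.4, 7.37 and 6.24 CPM in homo libraries, a difference of 1.23 (SE 0.36, unadjusted edgeR p 0.00547), beside C3 in the same direction. The protease inhibitor A2m differed by 0.87 (SE 0.26, unadjusted edgeR p 0.00412). Chil1, a secreted chitinase-like protein, differed by 0.99 (SE 0.56, unadjusted edgeR p 0.116) and was called in the 7 libraries alone, at an edgeR adjusted p of 0.0332. Taar1, the family member that is not olfactory, had 0 counts in all libraries but het-1, which had 3.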
